A study of Mus musculus with 16 samples.

Results

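Lipid droplet and triglyceride genes were described in mouse dendritic cells given a fatty acid, an innate immune agonist, or both. The 10 genes, picked by name for their part in storing or releasing neutral lipid, were Plin2, Plin3, Dgat1, Dgat2, Soat1, Pnpla2, Lipe, Mgll, G0s2 and Hilpda. Of these, 9 were measured among the 22180 genes of the array, and Soat1 was not analysed here. Bone marrow from C57/B6 males was cultured for 10 days with GM-CSF at 20 ng/ml, and the cells were then treated for 24 h. There were 4 groups of 4 arrays, namely IMQ and PA together, IMQ alone, PA alone, and mock. From knowledge of the study, PA is read as palmitic acid, a saturated fatty acid. IMQ is read as imiquimod, which activates TLR7, a receptor for RNA. PA was used at 0.5 mM, bound to bovine serum albumin at 6 to 1. The labels give the IMQ dose as 3 uM in one place and 3 ug/ml in another, and they do not say whether mock cells received albumin. They call the replicates biological but do not name the animals or cultures, so the spread behind each p-value is that between these arrays only.

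Cells store surplus fatty acids as triglyceride and cholesteryl ester in droplets that bud from the endoplasmic reticulum. Diacylglycerol acyltransferases add the last acyl chain of a triglyceride, perilipins coat the droplet, and a chain of lipases takes the fatty acids off again, one after the other. Small inhibitor proteins hold back the lipase that starts this release. Myeloid cells fed fatty acid or stimulated through Toll-like receptors are known to gather droplets.

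All values are log2 RMA values, so a difference of 1 is a doubling of signal, and levels of different genes on an array cannot be compared. Across genes, arrays of 1 group correlated at 0.994 to 0.996. All 10 dendritic cell markers that were measured lay above 4.93 in every group, a limit set at the 95th percentile of sensory receptor genes, which should mostly be silent here. So did 7 of 10 macrophage markers, whereas Vsig4, Timd4 and Cd163 lay below it, as did all 6 lymphocyte markers, the 1 erythroid marker and the adipocyte markers Adipoq, Lep and Cidec. Above the limit were 1 of 8 neutrophil markers with IMQ and PA, 1 with IMQ, 2 with PA and 4 in mock, and 2, 2, 0 and 0 of the 7 mast cell, basophil and eosinophil markers in the same groups. Of 6 adipocyte markers, 3, 3, 2 and 2 lay above it. The mean of the macrophage markers was 8.12 to 8.16, 8.19 to 8.22, 8.19 to 8.30 and 8.24 to 8.35 in those groups. IMQ against mock raised 3 and lowered 4 of these 10 markers (limma, adjusted p under 0.05), and raised 5 and lowered 5 of the 10 dendritic cell markers. Adgre1 read 11.2 to 11.7 on arrays with IMQ and 9.99 to 10.2 on those without it, whereas Mrc1 read 6.44 to 7.75 with IMQ and 10.1 to 10.3 without it, and Itgax, a dendritic cell marker, 9.22 to 9.43 and 10.9 to 11.1. The part of these markers in the results was not tested. Arrays without IMQ differed among themselves in the cytokine gene Il6, which read 4.12, 4.0, 7.43 and 8.22 with PA and 7.57, 7.90, 7.71 and 4.32 in mock. The cytokine gene Il1b split the same arrays, at 9.86, 9.67, 10.66 and 11.23 with PA and 11.09, 11.28, 11.08 and 9.40 in mock. Where leaving out the 5 arrays high in Il6 altered a call or a sign between PA and mock, the result without them is therefore also given. That fit leaves 2 PA arrays and 1 mock array, the lone array being taken to vary like the others.

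Promoter windows from RefSeq (GRCm38.p6), which run from 250 bases before to 50 bases after a start of transcription, were found for 7 of the 9 measured genes. Dgat1 and Dgat2 are named only. Of the 7 genes with windows, Plin2 and Hilpda rose most with PA alone. Hilpda, Plin3 and Mgll were raised more by PA when IMQ was present. The windows of Hilpda, Plin2, Plin3 and Mgll are printed for these reasons. Each is read 5′ to 3′ on the strand of its gene. Capitals mark the core letters of the hypoxia response element, ACGTG or GCGTG, on either strand. Hilpda lies on the plus strand at chr6:29272238-29272537, Plin2 on the minus strand at chr4:86670010-86670309, Plin3 on the minus strand at chr17:56290462-56290761, and Mgll on the plus strand at chr6:88724162-88724461.
Hilpda: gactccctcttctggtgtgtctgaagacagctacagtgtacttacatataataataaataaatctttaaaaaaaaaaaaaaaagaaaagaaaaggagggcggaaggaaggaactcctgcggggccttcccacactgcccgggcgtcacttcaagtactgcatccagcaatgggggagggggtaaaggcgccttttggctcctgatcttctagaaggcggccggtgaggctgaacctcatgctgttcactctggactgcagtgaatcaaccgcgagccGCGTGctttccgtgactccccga
Plin2: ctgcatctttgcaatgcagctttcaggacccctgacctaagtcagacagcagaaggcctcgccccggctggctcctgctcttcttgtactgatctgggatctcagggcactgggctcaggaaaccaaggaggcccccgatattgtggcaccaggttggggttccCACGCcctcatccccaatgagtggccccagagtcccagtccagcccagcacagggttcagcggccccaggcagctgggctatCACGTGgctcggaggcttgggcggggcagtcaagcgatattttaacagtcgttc
Plin3: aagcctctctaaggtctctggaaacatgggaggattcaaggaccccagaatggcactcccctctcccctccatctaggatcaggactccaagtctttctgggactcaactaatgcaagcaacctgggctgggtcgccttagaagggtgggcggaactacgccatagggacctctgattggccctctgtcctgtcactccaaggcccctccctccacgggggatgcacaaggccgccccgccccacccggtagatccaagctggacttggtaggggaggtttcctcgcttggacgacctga
Mgll: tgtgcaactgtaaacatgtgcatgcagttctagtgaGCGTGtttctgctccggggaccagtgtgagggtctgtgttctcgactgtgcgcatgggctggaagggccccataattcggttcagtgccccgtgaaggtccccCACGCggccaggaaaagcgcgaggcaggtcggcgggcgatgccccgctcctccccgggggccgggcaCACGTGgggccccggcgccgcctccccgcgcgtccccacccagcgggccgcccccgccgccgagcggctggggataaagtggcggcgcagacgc

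The printed windows of Hilpda, Plin3 and Mgll are at the annotated start of the gene, whereas the only window found for Plin2 is at another start. Counted on both strands, the core stood at 1 position in the printed window of Hilpda, 3 in that of Plin2, 0 in that of Plin3 and 4 in that of Mgll. Hilpda and Mgll each have a further, overlapping window from a second start, not printed, with 1 ACGTG and 2 GCGTG for Hilpda and 1 ACGTG and 6 GCGTG for Mgll. The palindromic E-box CACGTG holds ACGTG on both strands, so the 1 E-box in each of the printed Plin2 and Mgll windows accounts for 2 overlapping positions. Of all 32851 windows, 43.8% held either form of the core, 19.6% held ACGTG, 32.4% held GCGTG and 7.15% held the E-box. The PPAR direct repeat, AGGNCA and AGGNCA with 1 base between, was at 0 in all 10 windows of these genes and in 0.381% of all windows. An NF-kB motif was found in 1 window each of Plin2, Pnpla2, Lipe and Hilpda, and in 8.46% of all windows. These are matches of letters only.

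With PA alone, 4 of the 9 genes rose and 0 fell (limma, adjusted p under 0.05 over all genes), where 1.05% of all genes rose and 0.442% fell (1.49% either way). They were Plin2, Hilpda, Pnpla2 and Dgat1, so coat, synthesis, lipase and inhibitor genes all had a member that rose. With IMQ alone, 4 rose (Dgat2, Hilpda, Dgat1 and Lipe) and 4 fell (Mgll, Plin3, Plin2 and Pnpla2), against 17% and 17.9% of all genes (34.8% either way). IMQ and PA set against IMQ raised 5 (Hilpda, Plin2, Dgat1, Mgll and Plin3) and lowered 2 (Dgat2 and Lipe), against 11.6% and 9.44% of all genes (21.1% either way). IMQ and PA set against PA raised 3 (Dgat2, Hilpda and Dgat1) and lowered 4 (Mgll, Pnpla2, Plin2 and Plin3), against 16.8% and 18.5% of all genes (35.3% either way). Arrays of the groups compared did not overlap for 5, 8, 7 and 8 of the 9 genes in these comparisons, and for 9.92%, 34.2%, 23.5% and 35.7% of all genes. The median log2 change of the 9 genes was 0.10, 0.16, 0.48 and -0.11 in these 4 comparisons, and that of all genes was 0.01, 0.01, -0.02 and 0.00. The genes were chosen with results of these data known, so these counts describe them and test nothing. Comparisons that share a group of arrays are not independent of each other. Changes in whole cultures cannot tell fewer cells of a type from less RNA per cell.

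**Figure D1:**
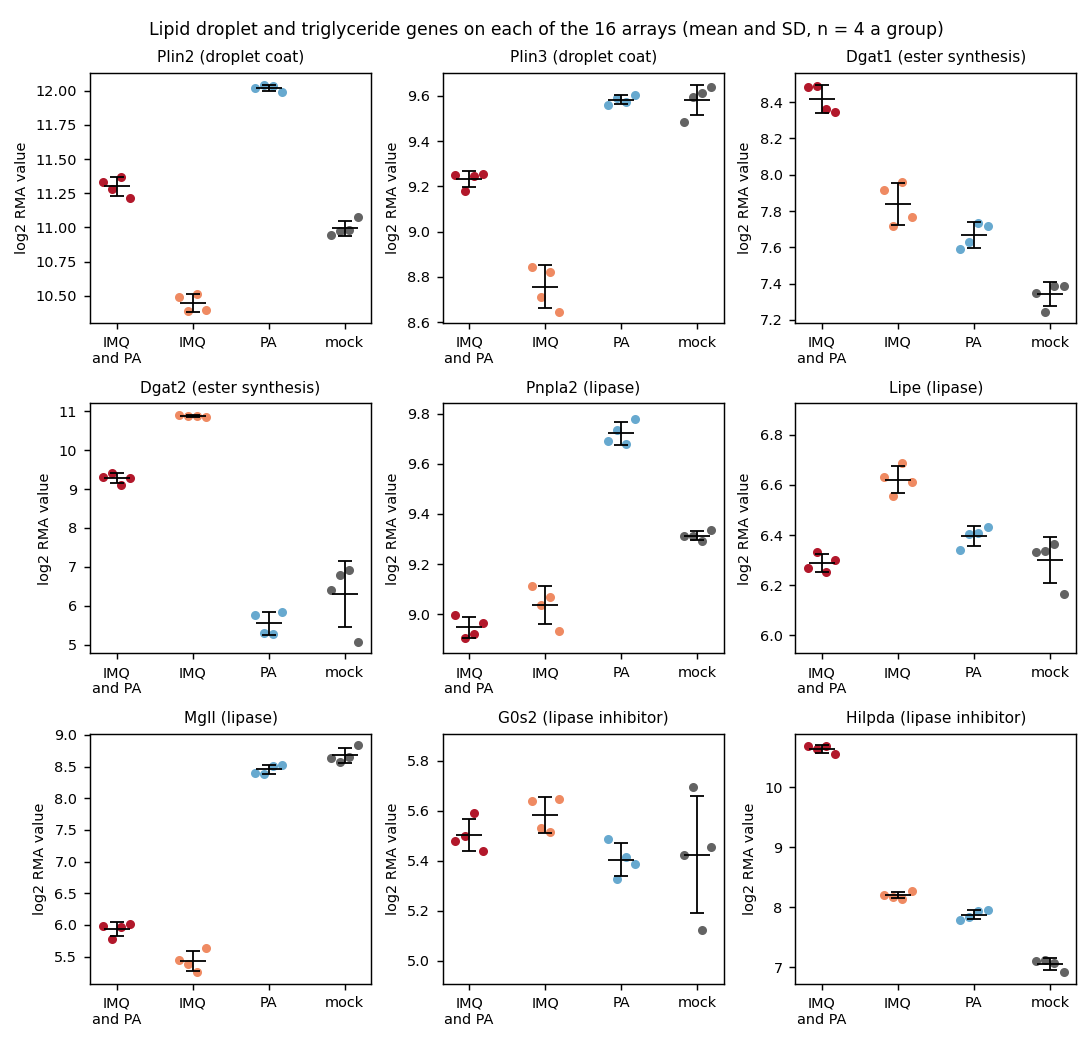
The 9 genes, each in a panel with its own axis in log2 RMA values, on each array. Points are the 4 arrays of IMQ and PA, IMQ, PA and mock, and bars are the mean and SD. Hilpda is highest with IMQ and PA, at 10.55 to 10.69, and Plin2 is highest with PA alone, at 11.99 to 12.04.

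Plin2 encodes perilipin 2, the main droplet coat protein of cells other than adipocytes. It read 11.33, 11.28, 11.37 and 11.21 with IMQ and PA, against 10.49, 10.39, 10.51 and 10.39 with IMQ. It read 12.02, 12.04, 12.04 and 11.99 with PA, against 10.94, 10.97, 10.98 and 11.07 in mock. No array of one group overlapped those of another, and the order of groups was PA, IMQ and PA, mock, IMQ. PA raised Plin2 by 1.03 ± 0.05 on the log2 scale (SE of the limma fit, n = 4 a group here and below; adjusted p = 3.13e-08), a change of 2.04-fold and the rank 4 among the rises of all genes. With IMQ present PA raised it by 0.85 ± 0.05 (limma adjusted p = 2.86e-09). IMQ lowered it, with a log2 change of -0.55 ± 0.05 without PA and -0.72 ± 0.05 with PA (limma adjusted p = 1.33e-07 and 4.04e-09). The PA change with IMQ minus that without it was -0.18, with a 95% interval from -0.32 to -0.03, and missed the threshold (limma adjusted p = 0.114).

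Plin3 encodes perilipin 3, a coat protein that moves from the cytosol onto young droplets. It read 9.25, 9.18, 9.24 and 9.26 with IMQ and PA, against 8.84, 8.71, 8.82 and 8.64 with IMQ. It read 9.56, 9.59, 9.57 and 9.60 with PA, against 9.49, 9.60, 9.61 and 9.64 in mock. The PA and mock arrays overlapped, while the groups with IMQ were lower and apart from each other. PA changed Plin3 by 0.00 ± 0.05 without IMQ, with an interval from -0.11 to 0.11, and raised it by 0.48 ± 0.05 with IMQ (limma adjusted p = 0.999 and 3.93e-06). The PA changes differed by 0.48 ± 0.07 (limma adjusted p = 0.000279), where the same test called 6.58% of all genes higher and 7.01% lower. IMQ lowered Plin3, with a log2 change of -0.83 ± 0.05 without PA and -0.35 ± 0.05 with PA (limma adjusted p = 1.66e-09 and 3.65e-05). Plin2 and Plin3 thus fell together with IMQ, and without IMQ the fatty acid raised Plin2 and gave no call for Plin3.

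Dgat1 encodes the acyltransferase of the endoplasmic reticulum that esterifies fatty acids taken up from outside. It read 8.48, 8.49, 8.36 and 8.34 with IMQ and PA, against 7.92, 7.72, 7.96 and 7.77 with IMQ. It read 7.59, 7.63, 7.73 and 7.72 with PA, against 7.35, 7.24, 7.39 and 7.39 in mock. The arrays with both agents were above all others and the mock arrays below all others, while IMQ and PA arrays overlapped. Dgat1 rose in each of the 4 comparisons, by 0.33 ± 0.06 with PA, 0.50 ± 0.06 with IMQ, 0.58 ± 0.06 with IMQ and PA against IMQ, and 0.75 ± 0.06 with IMQ and PA against PA (limma adjusted p = 0.0162, 8.88e-06, 4.78e-06 and 6.62e-08). The PA changes differed by 0.25, with an interval from 0.06 to 0.45 (limma adjusted p = 0.0787). The rise with PA alone missed the threshold without mock replicate 2 (0.29, limma adjusted p = 0.0643), PA replicate 3 (0.30, adjusted p = 0.0589) or PA replicate 4 (0.31, adjusted p = 0.0604). It missed it also without the 5 arrays high in Il6 (0.22, limma adjusted p = 0.737).

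Dgat2 encodes an unrelated acyltransferase for the same step, found at the endoplasmic reticulum and on droplets and known for work with newly made fatty acids. It read 9.32, 9.41, 9.12 and 9.29 with IMQ and PA, against 10.91, 10.88, 10.88 and 10.85 with IMQ. It read 5.77, 5.31, 5.27 and 5.85 with PA, against 6.41, 6.80, 6.91 and 5.07 in mock. The groups with IMQ were far above those without it and apart from each other, and mock replicate 4 lay below all PA arrays. Dgat2 was low in signal with PA alone (5.27 to 5.85) and in mock replicate 4 (5.07), near the limit of 4.93 from sensory receptor genes. The effect of this low signal on the size of the Dgat2 changes was not tested. IMQ raised Dgat2 by 4.58 ± 0.29, or 24.0-fold, which is the rank 4 among the rises of all genes with IMQ (limma adjusted p = 2.07e-09). That change lay between 4.17 and 4.79 with arrays left out in turn and was 5.81 without the 5 arrays high in Il6, which leaves mock replicate 4 alone. Set against PA, IMQ and PA raised it 13.3-fold, by 3.73 ± 0.29 (limma adjusted p = 2.36e-08). With IMQ present PA lowered it 3.03-fold, a log2 change of -1.60 ± 0.29 (limma adjusted p = 0.000704), so Dgat1 rose and Dgat2 fell in this comparison.

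The change of Dgat2 with PA alone, -0.75 ± 0.29, missed the threshold (limma adjusted p = 0.245) and depended on which arrays were kept. It was -1.16 without mock replicate 4 (limma adjusted p = 0.000802) and 0.47 without the 5 arrays high in Il6 (adjusted p = 0.535). Mock replicate 4 was the lowest mock array for Il6 as well as Dgat2, and PA replicate 4 was the highest PA array for both (8.22 and 5.85). PA replicate 3, the lowest PA array for Dgat2 (5.27), read 7.43 for Il6. The PA changes of Dgat2 with and without IMQ differed by -0.85 ± 0.41 (limma adjusted p = 0.212), and by -2.07 without the 5 arrays (adjusted p = 0.000258).

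**Figure D2:**
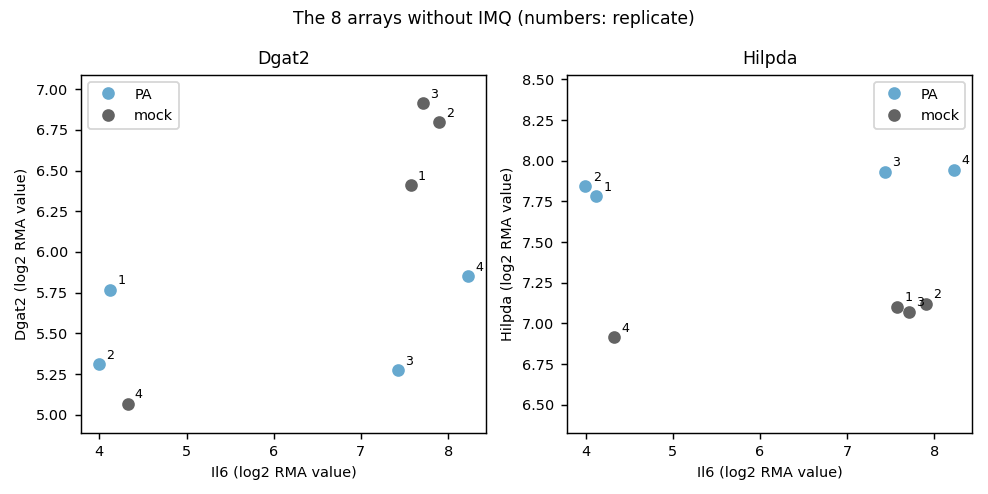
The 8 arrays without IMQ, with the log2 RMA value of Il6 on the horizontal axis and that of Dgat2 or Hilpda on the vertical axis. Points are PA and mock arrays, with their replicate number. Hilpda is higher on every PA array (7.78 to 7.95) than on every mock array (6.91 to 7.12) at both levels of Il6, while Dgat2 overlaps between the groups.

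Pnpla2 encodes adipose triglyceride lipase, which removes the first fatty acid from a triglyceride. It read 9.0, 8.91, 8.92 and 8.96 with IMQ and PA, against 9.11, 9.04, 9.07 and 8.93 with IMQ. It read 9.69, 9.74, 9.68 and 9.78 with PA, against 9.31, 9.31, 9.29 and 9.33 in mock. PA arrays were above mock arrays and both were above all arrays with IMQ, where the groups with and without PA overlapped. PA raised Pnpla2 by 0.41 ± 0.05 without IMQ, and with IMQ the change was -0.09 ± 0.05 (limma adjusted p = 0.000181 and 0.195). The PA changes differed by -0.50 ± 0.06 (limma adjusted p = 5.84e-05). IMQ lowered it, with a log2 change of -0.28 ± 0.05 without PA and -0.78 ± 0.05 with PA (limma adjusted p = 0.00014 and 8.38e-10). Without the 5 arrays high in Il6, the PA change was 0.38 and missed the threshold (limma adjusted p = 0.293).

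Lipe encodes hormone-sensitive lipase, which cleaves diacylglycerol and cholesteryl ester. It read 6.27, 6.33, 6.25 and 6.30 with IMQ and PA, against 6.63, 6.56, 6.69 and 6.61 with IMQ. It read 6.34, 6.41, 6.41 and 6.43 with PA, against 6.33, 6.34, 6.37 and 6.17 in mock. The IMQ arrays stood above all others, and mock overlapped both groups that received PA. IMQ alone raised Lipe by 0.32 ± 0.05 and PA lowered it (-0.33 ± 0.05) when IMQ was present (limma adjusted p = 7.3e-05 and 0.000121). PA alone gave 0.10 ± 0.05 (limma adjusted p = 0.399), and the PA changes differed by -0.43 ± 0.07 (adjusted p = 0.000567).

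Mgll encodes monoacylglycerol lipase, which frees the last fatty acid of a triglyceride and also degrades an endocannabinoid, arachidonoylglycerol. It read 5.99, 5.77, 5.96 and 6.01 with IMQ and PA, against 5.45, 5.38, 5.25 and 5.64 with IMQ. It read 8.4, 8.39, 8.51 and 8.52 with PA, against 8.63, 8.58, 8.65 and 8.84 in mock. The 4 groups did not overlap, and those with IMQ lay far below those without it. Mgll was low in signal with IMQ alone, at 5.25 to 5.64, near the limit of 4.93 from sensory receptor genes. The effect of this low signal on the size of the Mgll changes was not tested. IMQ lowered Mgll 9.49-fold, a log2 change of -3.25 ± 0.08, and IMQ and PA set against PA lowered it 5.74-fold, a log2 change of -2.52 ± 0.08 (limma adjusted p = 8.41e-14 and 7.73e-13). The change with IMQ alone was the rank 18 among the falls of all genes. PA raised Mgll by 0.50 ± 0.08 when IMQ was present (limma adjusted p = 0.000271) and gave -0.22 ± 0.08 alone (adjusted p = 0.225). The PA changes differed by 0.72 ± 0.12 (limma adjusted p = 0.000455). The 3 lipases of the chain thus changed in unlike ways with IMQ alone, where Lipe rose and Pnpla2 and Mgll fell.

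G0s2 and Hilpda encode small proteins that bind and inhibit adipose triglyceride lipase. G0s2 read 5.44 to 5.59 with IMQ and PA, 5.51 to 5.65 with IMQ, 5.33 to 5.49 with PA and 5.12 to 5.69 in mock. The IMQ arrays lay above all PA arrays, a pair not tested here, and every other pair of groups overlapped. Of the 5 limma tests of G0s2, 0 passed, with adjusted p between 0.196 and 0.948. Its change with IMQ was 0.16, with an interval from -0.03 to 0.35, and without mock replicate 2 it was 0.25 and passed (limma adjusted p = 0.0194). The signal was low, and a further probe set of G0s2 averaged 5.18 with IMQ and PA, 5.30 with IMQ, 5.29 with PA and 5.25 in mock.

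Hilpda, named as a hypoxia-inducible droplet protein, behaved unlike G0s2. It read 10.68, 10.64, 10.69 and 10.55 with IMQ and PA, against 8.20, 8.18, 8.14 and 8.27 with IMQ. It read 7.78, 7.84, 7.93 and 7.95 with PA, against 7.10, 7.12, 7.07 and 6.91 in mock. The groups did not overlap, and every array with both agents was above every other array. PA raised Hilpda 1.77-fold, by 0.82 ± 0.06, and IMQ raised it 2.21-fold, by 1.14 ± 0.06 (limma adjusted p = 1.72e-06 and 1.23e-10). With IMQ present PA raised it 5.44-fold, by 2.44 ± 0.06, and with PA present IMQ raised it 6.79-fold, by 2.76 ± 0.06 (limma adjusted p = 2.54e-13 and 2.02e-14). The PA change was 1.62 ± 0.08 greater with IMQ than without it (limma adjusted p = 3.48e-09). Its PA change ranked 12 among the rises of all genes without IMQ and 15 with IMQ.

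**Figure D3:**
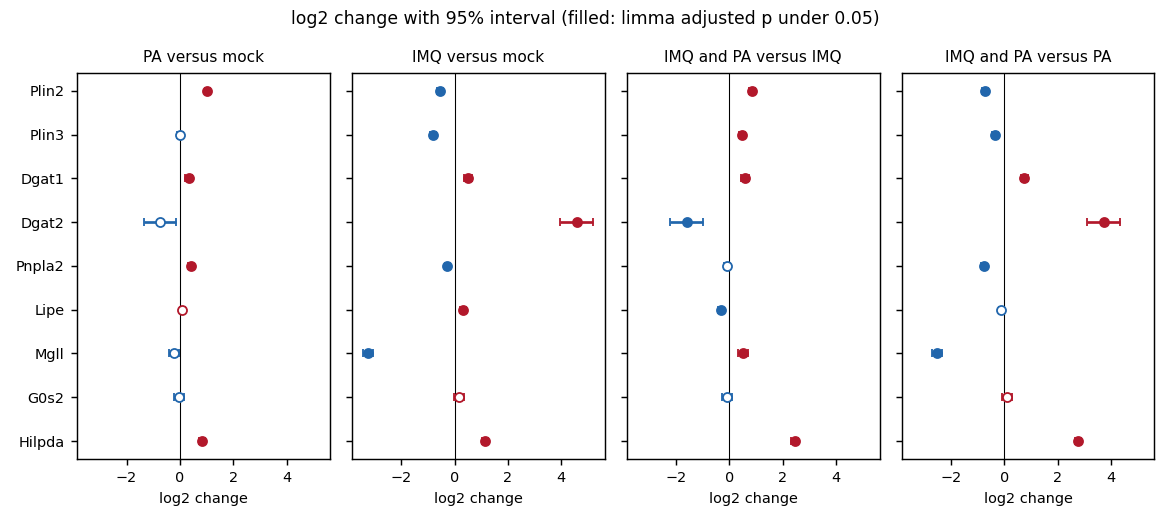
The log2 change of each of the 9 genes in the 4 comparisons of the groups. Points are limma estimates, bars are 95% intervals and filled points have an adjusted p under 0.05. Hilpda is right of 0 in every panel, at 0.82, 1.14, 2.44 and 2.76, and Mgll lies far left of 0 in both comparisons of IMQ, at -3.25 and -2.52.

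The interaction, the PA change with IMQ minus that without it, passed for 5 of the 9 genes and for 13.6% of all genes. It was positive for Hilpda, Mgll and Plin3 and negative for Pnpla2 and Lipe. Set side by side, the inhibitor Hilpda read highest and its target lipase gene Pnpla2 read lowest in the group with both agents, although the Pnpla2 arrays overlapped those with IMQ alone. Plin2, Hilpda and Dgat1 rose with PA whether IMQ was present or not, though the rise of Dgat1 without IMQ missed the threshold in several fits given above.

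**Figure D4:**
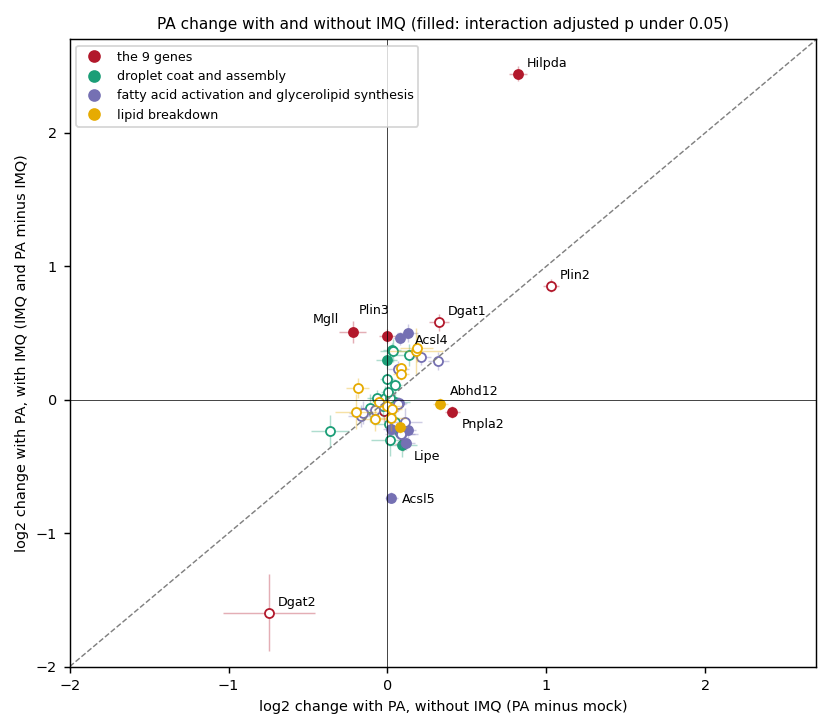
The log2 change with PA in the absence of IMQ (horizontal) and in its presence (vertical) for the 9 genes and the other lipid genes measured. Bars are 1 standard error, the dashed line marks equal changes and filled points have an interaction adjusted p under 0.05. Hilpda lies far above the line (0.82 and 2.44), and Pnpla2 lies below it (0.41 and -0.09).

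The other genes of droplets and glycerolipids were taken from 3 lists of 53 genes, of which 49 were measured. Above 4.93 in some group were 15 of 19 genes of droplet coat and assembly, 15 of 17 of synthesis and 11 of 13 of breakdown. The lists thus held a smaller share of low genes than all genes did, which limits the comparison of their shares called. Among 19 measured genes of droplet coat and assembly, PA changed 0, IMQ raised 3 and lowered 5, and IMQ and PA raised 5 and lowered 3 against IMQ and raised 1 and lowered 7 against PA (limma, adjusted p under 0.05). Called either way were 0%, 42.1%, 42.1% and 42.1% of this list in these comparisons, beside the 1.49%, 34.8%, 21.1% and 35.3% of all genes given above. Among those that fell with IMQ, the log2 change was -2.0 ± 0.08 for Mettl7a1, a droplet-bound methyltransferase-like protein, -0.90 ± 0.06 for Pcyt1a, which serves phosphatidylcholine synthesis for growing droplets, and -0.87 ± 0.06 for Hsd17b11, a droplet dehydrogenase (limma adjusted p = 1.58e-11, 1.14e-08 and 2.14e-09). IMQ raised Faf2, a factor in protein removal at the endoplasmic reticulum, by 0.33 ± 0.04 (limma adjusted p = 1.17e-05). When IMQ was present PA raised Hsd17b11 and Mettl7a1 by 0.37 each and lowered Aup1, a droplet protein, with a change of -0.25 (limma adjusted p = 0.000118, 0.00465 and 0.000876). The median change in this list was 0.01 with PA, 0.00 with IMQ, 0.01 with IMQ and PA against IMQ, and -0.08 with IMQ and PA against PA.

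Among 17 measured genes of fatty acid activation and glycerolipid synthesis, PA raised 1 and lowered 0, IMQ raised 8 and lowered 3, and IMQ and PA raised 5 and lowered 5 against IMQ and raised 6 and lowered 2 against PA. Called either way were 5.88%, 64.7%, 58.8% and 47.1% of this list, beside 1.49%, 34.8%, 21.1% and 35.3% of all genes. Acsl5, which couples fatty acids to coenzyme A, averaged 9.77 ± 0.02 with IMQ and PA, 10.51 ± 0.04 with IMQ, 9.27 ± 0.05 with PA and 9.25 ± 0.03 in mock (SD, n = 4). It rose by 1.26 with IMQ and fell by 0.74 when PA was added (limma adjusted p = 7.77e-13 and 2.24e-09). Acsl4, a related enzyme that prefers arachidonic acid, averaged 10.86 ± 0.03, 10.40 ± 0.05, 9.61 ± 0.07 and 9.53 ± 0.06 in the same groups, and PA raised it by 0.46 with IMQ (limma adjusted p = 3.18e-06). IMQ raised Gpat3, which starts glycerolipid synthesis, by 1.22 ± 0.09, and Agpat3, which adds the next chain, by 1.03 ± 0.06 (limma adjusted p = 7.3e-09 and 3.86e-10). Under the other ways of processing the rise of Gpat3 was as low as 0.70. IMQ lowered Lpin1, the phosphatase that makes diacylglycerol, with a change of -1.70 ± 0.07, and PA raised Lpin1 by 0.50 ± 0.07 with IMQ (limma adjusted p = 6.25e-12 and 3.49e-05). The 1 rise with PA alone, of the acyltransferase Agpat4 (0.32 ± 0.07, limma adjusted p = 0.0241), missed the threshold without mock replicate 1 (0.29, adjusted p = 0.0887), mock replicate 2 (0.29, 0.0869), PA replicate 3 (0.28, 0.0864) or PA replicate 4 (0.30, 0.0867). Without the 5 arrays high in Il6 it was 0.15 (limma adjusted p = 0.833). The median change was 0.08 with PA, 0.24 with IMQ, -0.10 with IMQ and PA against IMQ, and 0.02 with IMQ and PA against PA.

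Among 13 measured genes of lipid breakdown, PA raised 1 and lowered 0, IMQ raised 1 and lowered 8, and IMQ and PA raised 3 and lowered 1 against IMQ and raised 1 and lowered 8 against PA. Called either way were 7.69%, 69.2%, 30.8% and 69.2% of the list, again beside 1.49%, 34.8%, 21.1% and 35.3% of all genes, and with IMQ 17% of all genes rose and 17.9% fell. Daglb, which makes the monoacylglycerol that Mgll degrades, averaged 6.04 ± 0.15 with IMQ and PA, 5.95 ± 0.12 with IMQ, 9.60 ± 0.04 with PA and 9.79 ± 0.06 in mock (SD, n = 4). It fell by 3.84 with IMQ and by 3.57 with IMQ and PA against PA (limma adjusted p = 1.25e-14 and 2.02e-14). IMQ also lowered Nceh1, a cholesteryl ester hydrolase (-1.86 ± 0.05), and Lipa, the lysosomal acid lipase (-1.43 ± 0.04), with limma adjusted p = 1.66e-13 and 1.51e-13. Lpl, the secreted lipoprotein lipase, fell by 1.5 with IMQ and PA against PA (limma adjusted p = 1.43e-13). PA alone raised Abhd12, a hydrolase of lysophospholipids, by 0.33 ± 0.05 (limma adjusted p = 0.00145). Without the 5 arrays high in Il6 the change was again 0.33 and missed the threshold (limma adjusted p = 0.421). The median change of the list was 0.03 with PA, -0.65 with IMQ, -0.03 with IMQ and PA against IMQ, and -0.62 with IMQ and PA against PA.

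**Figure D5:**
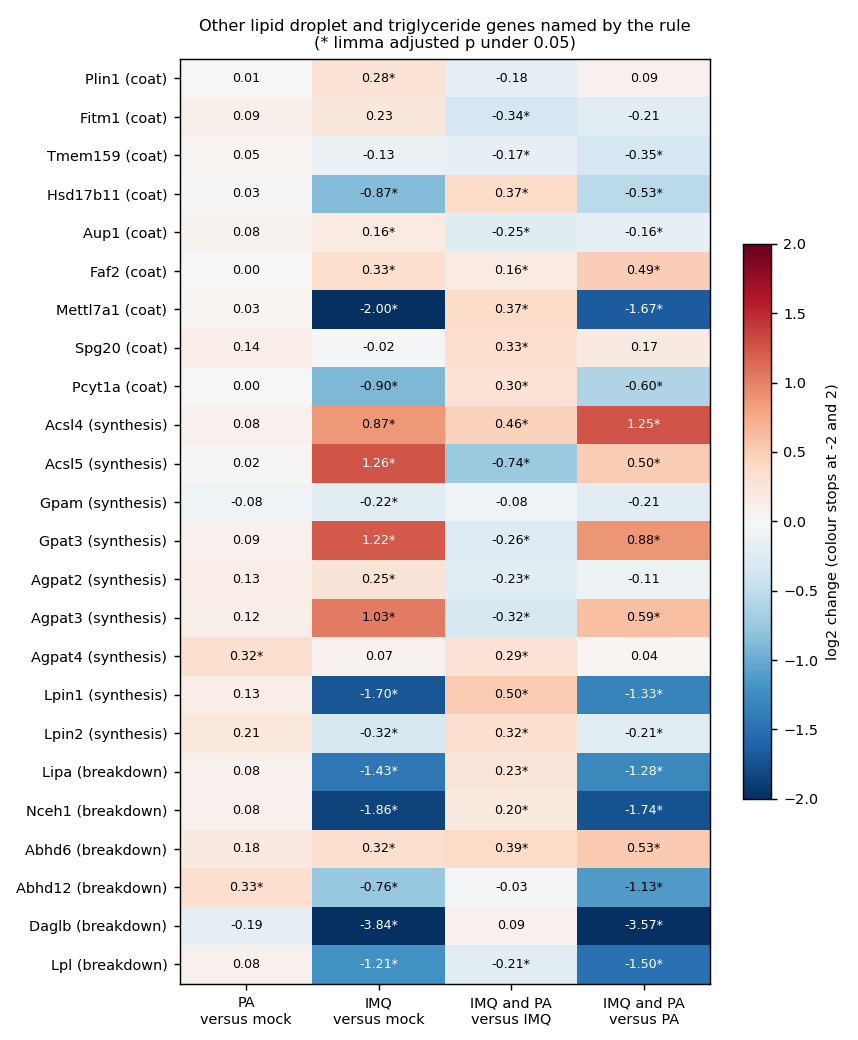
The log2 change of the 24 named genes of the other lists (down the page) in the comparisons of the groups (across), printed in each cell and coloured from -2 to 2, with a star where the limma adjusted p is under 0.05. Daglb, Nceh1, Lipa and Mettl7a1 are blue in both columns of IMQ, from -3.84 to -1.28, and Acsl5 is 1.26 with IMQ and -0.74 when PA is added.

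For the 5 of the 9 genes whose group means spanned at least 1 on the log2 scale, the 3 genes most alike over the 16 arrays were found by the root mean square difference of centred values. For Plin2 they were the aldehyde dehydrogenase gene Aldh9a1 (0.10), the phosphodiesterase gene Pde3b (0.17) and the fatty acid receptor gene Cd36 (0.23). Cd36 averaged 10.9 with IMQ and PA, 9.96 with IMQ, 11.6 with PA and 11.1 in mock. For Hilpda, whose means spanned 3.59, they were Derl3 (0.27), which serves protein removal from the endoplasmic reticulum, Hid1 (0.28) and the leptin receptor gene Lepr (0.32). Derl3 averaged 9.40 with IMQ and PA, 6.35 with IMQ, 6.30 with PA and 5.57 in mock. For Dgat1 the differences were 0.08 for each of Zdhhc18, Met and Trabd. For Dgat2 they were 0.34 for Vnn3, 0.39 for Ifi205 and 0.45 for Slc1a2, and for Mgll 0.18 for Tmem154, 0.18 for Mcoln3 and 0.19 for Klra17. The arrays are shared by all genes, so likeness here is a description over 16 arrays in 4 groups.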

How the data were processed

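Whole-transcript Affymetrix arrays were hybridised with labelled DNA made from 200 ng total RNA, per the labels' protocols. The authors deposited log2 values from 0.628 to 13.5 for 41345 probe sets on 16 arrays, made with RMA and affy per the submitters' processing notes, which give no version. The genome build is not given in the sources used here. By the platform annotation 23521 probe sets had 1 symbol, 1814 several and 16010 none. Only those with 1 symbol were used, and for genes with several probe sets the one with the highest mean was used.

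A model of 4 group means was fitted to all 22180 genes with limma 3.58.1 in R 4.3.3 (lmFit and eBayes, 12 residual and 2.96 prior degrees of freedom). Tests were two-sided, p-values were Benjamini-Hochberg adjusted over all genes, and a gene was called under 0.05 with no filter. Only the limma fit was tested on simulated data, for PA against mock and the interaction, with the spread of a gene equal in all groups. The 10 genes were named throughout, and in each other list at most 3 called genes per direction by size. The 10 genes and all lists were chosen with earlier results of these data known. Arrays have no read depth, so their number limits precision. Alternatives were repeated quantile normalisation, equal array medians, the mean of all probe sets of a gene, leaving out 8622 genes below 4.93 in all groups, trended and robust variances, fits of the compared groups alone, a replicate block, and leaving out arrays.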

Additional observations from a re-analysis of the deposited data

Results flagged for a closer look

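Among 132 sets of 4 arrays, 7 had 1 array farther from the others than Dixon's limit, where chance gives about 1 in 20, and 1 of the 36 sets of the 9 genes was among them. That set was Plin3 with IMQ and PA, where replicate 2 read 9.18 and the nearest array 9.24. The others were Fitm1 with IMQ (replicate 1, 5.81), Gpam with IMQ and PA (replicate 4, 6.41), Abhd6 with IMQ and PA (replicate 2, 6.62), Abhd6 with PA (replicate 4, 5.95), Lipa with PA (replicate 4, 12.4) and Aup1 in mock (replicate 4, 10.1).

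The PA change with IMQ differed from that without it for 5 of the 9 genes by limma's interaction term, at 1.62 for Hilpda, 0.72 for Mgll, 0.48 for Plin3, -0.43 for Lipe and -0.50 for Pnpla2. In the other lists, where at most 3 called genes per direction are named, the difference passed at 0.38 for Acsl4, 0.37 for Lpin1, 0.34 for Hsd17b11, 0.30 for Pcyt1a, -0.29 for Lpl, -0.32 for Aup1, -0.36 for Agpat2, -0.37 for Abhd12, -0.43 for Fitm1, -0.44 for Agpat3 and -0.76 for Acsl5. The synthesis list had 4 called lower, of which 3 are named. The call was lost for Pcyt1a in 11 and for Fitm1 in 8 of the 16 fits that each left out 1 array (limma adjusted p up to 0.0862 and 0.064). With the mean of all probe sets of a gene it was lost for Lpl (-0.16, limma adjusted p = 0.205) and Fitm1 (-0.27, 0.156). With equal array medians it was lost for Pcyt1a (0.29, limma adjusted p = 0.0863). With the 5 arrays without IMQ that were high in Il6 left out, which leaves 2 PA arrays and 1 mock array, 9 of these differences missed the threshold. Their sizes were then 0.36 for Acsl4 (limma adjusted p = 0.0583), 0.47 for Lpin1 (0.0913), 0.38 for Hsd17b11 (0.134), 0.39 for Pcyt1a (0.179), -0.36 for Abhd12 (0.106) and -0.40 for Fitm1 (0.237). For Lpl, Aup1 and Agpat2 they were nearer 0, at -0.23 (limma adjusted p = 0.22), -0.24 (0.239) and -0.19 (0.356).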

How the results depend on the processing

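Of the 9 genes, 8 were called for IMQ against mock, 7 for IMQ and PA against IMQ and 7 for IMQ and PA against PA under each alternative that kept all arrays. Leaving out each array in turn gave 8 to 9, 7 to 7 and 7 to 7. PA against mock called 4, from 3 to 5 with arrays left out in turn, 3 in a fit of those groups alone, where Dgat1 was lost (limma adjusted p = 0.0505), and 2 (Plin2 and Hilpda) without the 5 arrays high in Il6. The interaction called 5, from 5 to 6 with arrays left out in turn. It gained Dgat1 with repeated quantile normalisation, low genes left out or trended variances (limma adjusted p = 0.0464, 0.0383 and 0.0314) and without IMQ replicate 3 (0.0417), and Plin2 with trended variances (0.0101). Signs turned only for changes that were not called. Plin3 with PA was 0.032 with equal medians, and -0.033 to 0.018 with arrays left out in turn. Dgat2 with PA was 0.47 without the 5 arrays. G0s2 with PA was 0.013 with equal medians and with the mean of probe sets, and -0.12 to 0.070 with arrays left out in turn. G0s2 was -0.0082 for IMQ and PA against PA with the mean of probe sets, and its interaction was -0.15 to 0.039 with arrays left out in turn. The cause was not tested. Over all genes, PA against mock called 331, against 530 with low genes left out, 737 with trended variances, 150 in a fit of those groups alone and 15 without the 5 arrays. It called 201, 170, 220 and 192 without mock replicate 1, mock replicate 2, PA replicate 3 and PA replicate 4. The interaction called 3015 genes, and 1200 without the 5 arrays.

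With replicate number as a block, 4, 8, 7, 7 and 5 of the 9 genes were called in the 5 comparisons, as without it, and 259 genes in all for PA against mock. Of 128 results, the block lost 1, Plin1 with IMQ (limma adjusted p = 0.0615). Same-numbered arrays correlated at -0.118 to 0.173 in their deviations from group means. No clear pairing by number was seen, but 4 arrays a group cannot exclude it. In the other lists, the interaction called 4 coat genes, against 7 with low genes left out or trended variances, 0 without the 5 arrays, and 2 without any 1 of mock replicate 3, PA replicate 2, IMQ replicates 2, 3 or 4, or IMQ and PA replicate 3. It called 6 synthesis genes, 2 without the 5 arrays, and 2 breakdown genes, against 1 with the mean of probe sets, 4 with trended variances and 0 without the 5 arrays. IMQ called 11 synthesis genes, and 6 without those arrays. Calls that some fits with 1 array left out lost were those of Plin1 (5 of 16), Gpam (12) and Abhd6 (3) with IMQ and of Tmem159 (5) and Gpat3 (9) for IMQ and PA against IMQ. Others were that of Lpin2 (1) for IMQ and PA against PA, without replicate 4 of IMQ and PA (-0.17, limma adjusted p = 0.0502), and those of Agpat4, Pcyt1a and Fitm1 given above.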
